A study of Homo sapiens with 208 samples.

Results

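The immune checkpoint ligands followed here were CD274 (PD-L1), PDCD1LG2 (PD-L2), CD276 (B7-H3), VTCN1 (B7-H4), PVR (CD155), NECTIN2 (CD112), LGALS9 (galectin-9) and CD47. They were found by gene name, through the transcript accession that the array files give for each probe. No threshold on a measured value was used, but the list was chosen with earlier results of these data known. All 8 genes were on the array, among 16961 genes that could be named, and all 8 passed the filter on dim probes, among 13261 genes tested. They had 12 probes, with 1 probe each for CD274, PDCD1LG2, VTCN1 and LGALS9 and a pair of probes for each of the other 4 genes.

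The samples were one-colour microarrays of a pair of human non-small cell lung cancer lines. PC9 cells carry an activating deletion in the EGFR kinase domain and are sensitive to gefitinib, an inhibitor of that kinase. PC9M2, which the sample labels call PC9GRM2, is a resistant line raised from PC9 by prolonged growth in a low dose of the drug. It is 1 such line, so a difference between the lines need not hold for other resistant cells. All cells were starved for 48 h and were then given no treatment, 0.5 μM gefitinib, 100 ng/ml EGF, or both agents. Cells were collected for RNA at 26 times between 0 and 24 h. Each of the 8 time courses had 1 array per time point and no replicate arrays. The 26 time points therefore stood in for replicates, and the p-values below measure the spread between time points and not between independent cultures.

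Checkpoint ligands are molecules on or from a cell that restrain the immune cells that touch it. PD-L1 and PD-L2 bind the receptor PD-1 and dampen T cells, PVR and NECTIN2 are shared between the inhibitory receptor TIGIT and the activating receptor CD226, galectin-9 binds TIM-3, and CD47 tells phagocytes through SIRPα not to engulf the cell. In lung cancer cells CD274 is known to be induced by interferon-γ and to respond to growth factor signaling. Messenger RNA of the ligands was measured, not protein at the cell surface, and a lower signal in such bulk RNA cannot tell fewer expressing cells from less RNA per cell.

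The promoter of CD274 is shown because interferon response elements there are the best known input to this gene, and that of VTCN1 because it was the member that moved in the opposite direction with gefitinib. Each is the 250 bases before the annotated start, 5′ to 3′ on the strand of the gene, from RefSeq on GRCh38.p14, CD274 from chr9:5450292-5450541 on the plus strand and VTCN1 from chr1:117210928-117211177 on the minus strand. Capitals mark matches to the motifs searched.
CD274: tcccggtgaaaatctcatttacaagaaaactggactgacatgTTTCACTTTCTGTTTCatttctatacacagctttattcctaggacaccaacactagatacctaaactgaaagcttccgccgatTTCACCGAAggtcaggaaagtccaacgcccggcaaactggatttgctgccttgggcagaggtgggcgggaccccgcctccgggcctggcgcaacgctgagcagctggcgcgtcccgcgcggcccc
VTCN1: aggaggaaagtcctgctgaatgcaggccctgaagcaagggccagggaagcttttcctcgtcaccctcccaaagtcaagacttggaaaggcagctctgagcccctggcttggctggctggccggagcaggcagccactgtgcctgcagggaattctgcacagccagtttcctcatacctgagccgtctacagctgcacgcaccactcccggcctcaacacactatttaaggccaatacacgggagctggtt

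The motifs were searched on both strands of the same window of 7 of the members, PDCD1LG2 not being in the sequence table. The interferon-stimulated response element, searched as GAAA, any 2 bases and GAAA again, was found in CD274 alone, as the overlapping matches TTTCACTTTC at base 43 and TTTCTGTTTC at base 49 of the window (read from the other strand), both over 200 bases before the start. The GAS element bound by STAT factors, TTCNNNGAA, was also found in CD274 alone, as TTCACCGAA at base 126, 125 bases before the start. Over all 35116 promoters of that length, 3.02% held the response element and 6.57% the GAS element. None of the 7 windows held the letters TGANTCA (AP-1, 6.57% of promoters), CACGTG (E-box, 6.34%) or GTAAACA (forkhead FOXO, 2.98%), which says only that these letters are not in this window. The matches are a description of the sequence and no binding was measured.

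Signal was quantile normalized over all arrays and is given as log2 of the intensity, so that a difference of 1 is a doubling. The scanner software calls a spot well above background when it exceeds its surroundings. From 24464 to 35938 features did so on an array, and the lowest such signal was 4.25 on the median array. It ran from 2.38 to 6.03 over the arrays, so counts of arrays well above background depend on the array as well as on the gene. The epithelial markers EPCAM, CDH1, KRT7, KRT8, KRT18 and KRT19 were well above background on every array, while the lung lineage factor NKX2-1 was so on 13. The leukocyte genes PTPRC and CD3D were well above background on 1 array each, although CD14, CD68 and ITGAM were on every array. The summed signal of the 5 fibroblast and endothelial markers on the array had a median of 426 scanner units untreated (299 to 522) and 826 with gefitinib (228 to 1192) in PC9M2, and of 1157 and 1328 in PC9, with 2 of the 5 well above background on the median array. The part of this in the gefitinib differences below was not tested. The 4 treatments of a line at a given time were hybridized on a common slide. The lines shared 0 of 52 slides and 0 scan days, with 8 scan days for PC9 and 9 for PC9M2, and features were saturated on PC9 arrays (183 to 1616 each) and on none of the PC9M2 arrays. A difference between the lines and a difference between scan periods cannot be told apart.

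The time point at 0.5 h in PC9M2 went against its labels. There DUSP6, a phosphatase gene induced by ERK signaling, stood at 7.75 in the library labelled EGF and at 12.53 in the library labelled EGF and gefitinib, while the untreated and gefitinib libraries of that slide stood at 13.05 and 7.85. CD274 stood at 2.77 and 6.599 in the same order, against 6.23 untreated and 2.87 with gefitinib. Across genes, the difference between these 2 libraries correlated at -0.39 with that of the other time points, where each of the other 25 gave 0.24 to 0.92. The labels were kept. Some of the results that rest on these 2 libraries, mainly those of CD274, are also given without 0.5 h, and the others include it. As a check of the drug, DUSP6 was lower with gefitinib at 26 of 26 time points in each line, by 6.81 ± 0.27 (SE, n = 26) in PC9 and by 2.16 ± 0.21 in PC9M2. Its difference at 0 h was already -3.49 in PC9 and -4.37 in PC9M2, so 0 h is not read as a baseline before the drug.

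With gefitinib, CD274, PDCD1LG2, PVR and CD47 fell and VTCN1 rose in both lines, and CD276 fell in PC9M2. In PC9, 4 of the 8 ligands were lower and 1 was higher at an adjusted p of 0.05 (limma, Benjamini-Hochberg over the 13261 genes), where 72.2% of all tested genes were called. In PC9M2, 5 were lower and 1 was higher, against 66.5% of all genes. The median difference was -0.50 over the ligands and -0.03 over all genes in PC9, and -0.40 and -0.01 in PC9M2. With most genes called, the count of ligands called was close to the background, and the members are described singly below. Whether the size of a member's difference stands out among all genes was not tested.

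**Figure D1:**
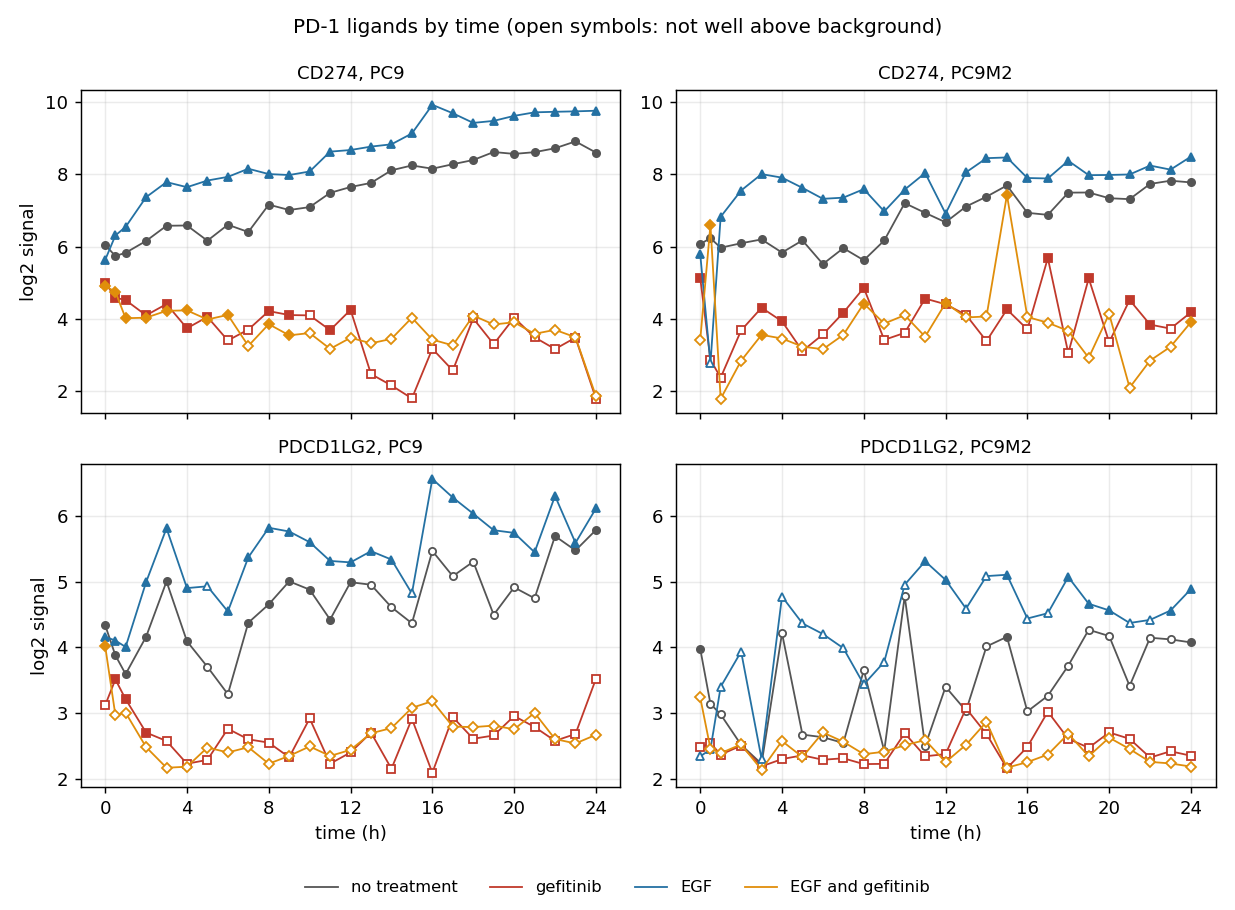
Log2 signal of CD274 (top) and PDCD1LG2 (bottom) at 26 time points from 0 to 24 h in PC9 (left) and PC9M2 (right), 1 array per point, with open symbols for arrays not well above background. In PC9 the gefitinib courses of CD274 lie below the others from 0 h on, and in PC9M2 the library labelled EGF at 0.5 h is low (2.77) and those with both agents at 0.5 h and at 15 h (7.43) are high.

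CD274, a ligand of PD-1, fell with gefitinib in both lines. Without treatment in PC9 its signal was lowest at 5.74, had a median of 7.57 and was highest at 8.91, and it was well above background on 26 of 26 arrays. With gefitinib the values were 1.80, 3.72 and 5.01, with 11 of 26 arrays well above background. The courses did not overlap: the highest value with the drug lay below the lowest value without it. The mean difference was -3.85 ± 0.32 (SE, n = 26), with an adjusted p of 1.87e-11 and a lower value at 26 of 26 time points. On the deposited intensity scale the medians were 190 and 13.2 scanner units.

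In PC9M2 the untreated course of CD274 ran from 5.52 through a median of 6.91 to 7.82. The gefitinib course ran from 2.38 through 3.89 to 5.68, and 13 of its 26 arrays were well above background. The courses overlapped only in that the highest value with the drug exceeded the lowest value without it, at different time points, and the drug was lower at 26 of 26 matched points. The difference was -2.79 ± 0.19 (adjusted p = 5.83e-13). The sign was the same on 8 of 8 scan days in PC9 (-5.93 to -1.39) and on 9 of 9 in PC9M2 (-3.86 to -1.77), where the smallest scan day held 1 time point. With a background correction that adds an offset (normexp), which compresses dim signals, the differences were -0.96 and -0.55, still called, and no fold is given, since most or many arrays with the drug were not well above background.

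The drop in CD274 with gefitinib took a different course in each line. In PC9 the drug course stood 1.04 below the untreated one already at 0 h (5.01 against 6.05) and 6.80 below at 24 h (1.80 against 8.60). The mean difference was -1.98 over 0 to 6 h, -4.05 over 7 to 15 h and -5.31 over 16 to 24 h, so the late value was larger by 3.33 ± 0.48 (adjusted p = 1.69e-06). The untreated signal went from a mean of 6.21 in the early window to 8.54 in the late one. The signal with gefitinib read 4.23 and 3.23, around or below the lowest signal well above background, and no array of that course was well above background after 12 h, so no fall is read from it. In PC9M2 the 3 windows gave -2.39, -2.66 and -3.29, and the late minus early difference of -0.90 ± 0.45 did not pass the test (adjusted p = 0.116, 95% interval -1.82 to 0.02). The signal with gefitinib there was 3.62 early and 4.14 late. The PC9M2 value was called with a floor of 16 scanner units (-1.20, adjusted p = 0.00649), with the normexp correction (-0.43, 0.000979) and with time points 3 h apart (-2.02, 0.0184).

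These line differences were tested directly, and the tests of the late minus early difference between lines and of the EGF response with and without gefitinib were added after the data had been seen. The gefitinib difference of CD274 was smaller in PC9M2 than in PC9 by 1.06 ± 0.30 (adjusted p = 0.00655), and 20 of 26 time points agreed in sign. Of the 8 ligands, 3 differed between the lines in their gefitinib difference, against 34.1% of all genes. The late minus early difference of CD274 differed between the lines by 2.43 ± 0.59 (adjusted p = 0.00412), where 2 of the 8 ligands and 18.5% of all genes were called. The first of these was 0.07 (adjusted p = 0.933) over the first 13 time points and 2.05 (9.48e-05) over the last 13, and its adjusted p was 0.0555 with time points 3 h apart and 0.0641 when the variance was inflated for correlation between neighbouring points. The second was 1.28 (adjusted p = 0.572) with time points 3 h apart. With gefitinib CD274 was well above background on 11 of 26 arrays in PC9 and on 13 of 26 in PC9M2. Untreated it was lower in PC9M2, by a mean of 0.69. A smaller difference in PC9M2 is thus not read as a weaker effect of the drug, and the part of dim signal in it was not tested.

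EGF raised CD274 in the absence of the drug. In PC9 the EGF course ran from 5.63 through a median of 8.65 to 9.92 and lay above the untreated course at 25 of 26 time points, the exception being 0 h. The difference was 1.03 ± 0.08, 2.05-fold (adjusted p = 1.47e-09), and it was alike in size in the early, middle and late windows, at 0.92, 1.04 and 1.13. In PC9M2 the course ran from 2.77, in the library at 0.5 h named above, through 7.90 to 8.49, and the difference was 0.79 ± 0.19 (adjusted p = 0.00744). Without 0.5 h it was 0.96 (adjusted p = 1.57e-06). With 0.5 h kept, the call in PC9M2 was lost with time points 3 h apart (adjusted p = 0.107), over the first 13 time points (0.274), without pairing by time point (0.229) and with the variance inflated for correlation (0.109).

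PDCD1LG2, the other ligand of PD-1, lies beside CD274 on the same chromosome and moved the same way at a dimmer signal. In PC9 it ran from 3.29 through 4.70 to 5.78 untreated, with 15 of 26 arrays well above background, and from 2.10 through 2.67 to 3.52 with gefitinib, with 3 of 26. The untreated arrays passed from 0 to 4 h and failed from 13 to 21 h. The signal was yet higher late (mean 5.22 over 16 to 24 h) than early (4.01 over 0 to 6 h), so this count did not follow the signal alone. The courses overlapped little, and gefitinib was lower at 26 of 26 time points, by 1.97 ± 0.14 (adjusted p = 2.21e-12). In PC9M2 the untreated course ran from 2.23 through 3.41 to 4.78 and only 3 arrays were well above background, while the gefitinib course ran from 2.17 through 2.40 to 3.07 and 0 of 26 were. The difference of -0.96 ± 0.14 there (adjusted p = 4.57e-07) was between signals that were both mostly not well above background, so no bound on the fold is given, and with a floor of 16 scanner units under the signal it was -0.07 (adjusted p = 0.0913). With the normexp correction the differences were -0.14 in PC9 and -0.07 in PC9M2.

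The EGF course of PDCD1LG2 was higher than the untreated one in both lines, by 0.72 ± 0.07 (adjusted p = 2.69e-08) in PC9 against 0.82 ± 0.17 in PC9M2 (0.00138). It ran from 4.01 through 5.45 to 6.56 in PC9, with 24 of 26 arrays well above background, and from 2.31 through 4.48 to 5.31 in PC9M2, with 8 of 26. More arrays passed the background call with EGF than without in each line. With the normexp correction the differences were 0.09 and 0.05, still called (0.000430 and 0.0270). The PC9M2 difference was 0.88 without 0.5 h and lost its call with time points 3 h apart (adjusted p = 0.282) and over the first 13 time points (0.286). The gefitinib difference of PDCD1LG2 was smaller in PC9M2 by 1.01 ± 0.18 (adjusted p = 8.84e-05), where 3 of 26 untreated PC9M2 arrays and 15 of 26 untreated PC9 arrays were well above background. It lost its call with time points 3 h apart (adjusted p = 0.0756) and over the first 13 time points (0.0597).

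**Figure D2:**
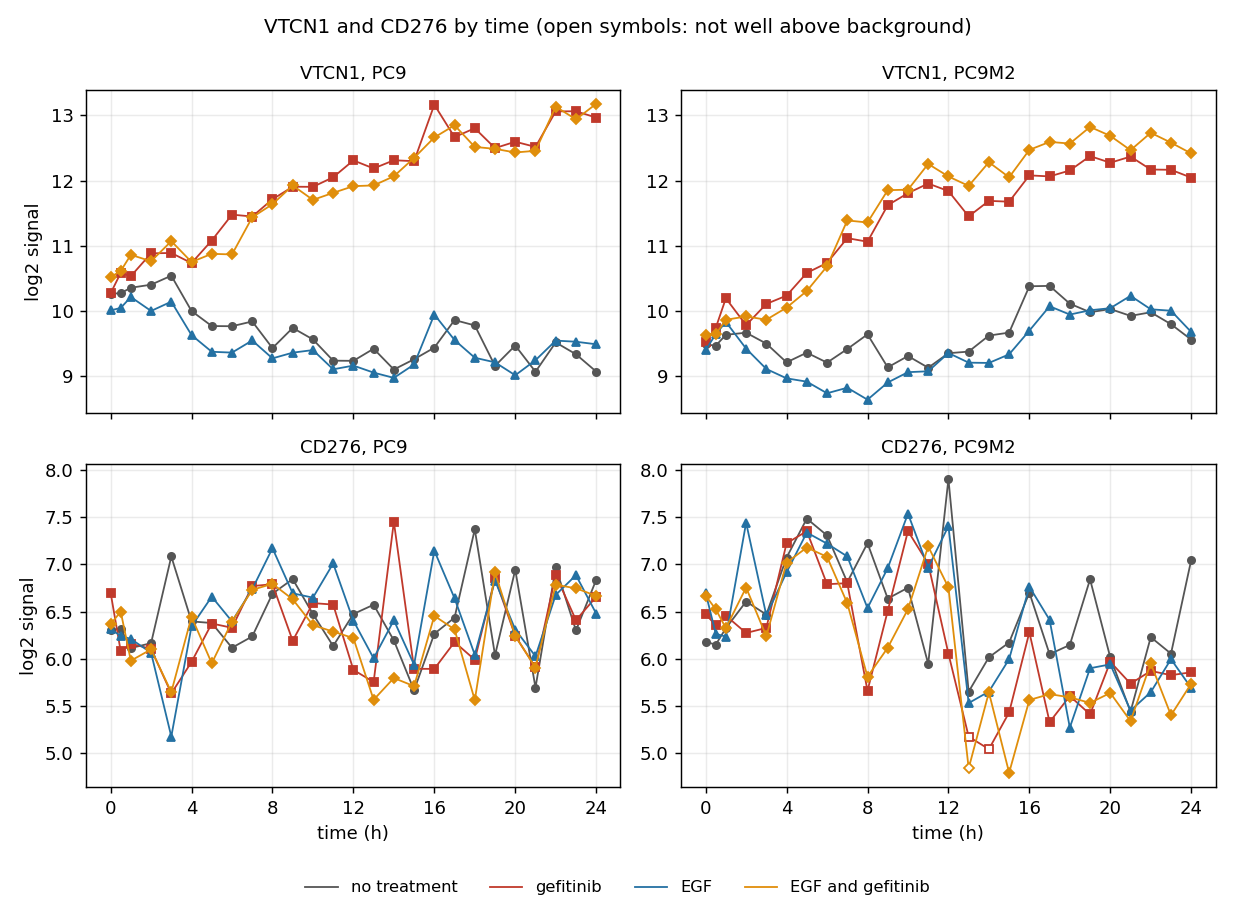
Log2 signal of the B7 family members CD276 (higher-variance probe) and VTCN1 at 26 time points from 0 to 24 h in PC9 and PC9M2, 1 array per point, by treatment, with open symbols for arrays not well above background. The courses with gefitinib, alone or with EGF, rise for VTCN1 to 13.17 and 13.18 in PC9 and to 12.38 and 12.82 in PC9M2, while those of CD276 run among the courses without it.

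VTCN1, a B7 family protein that restrains T cells through a receptor not yet settled, was the member that rose with gefitinib. In PC9 the untreated course ran from 9.06 through a median of 9.54 to 10.54, and the gefitinib course from 10.27 through 12.12 to 13.17. All arrays were well above background. The drug course was higher at 26 of 26 time points, by 2.27 ± 0.23, which is 4.84-fold (adjusted p = 1.53e-09). In PC9M2 the untreated course ran from 9.12 through 9.59 to 10.38 and the gefitinib course from 9.52 through 11.68 to 12.38. The difference was 1.71 ± 0.15, 3.28-fold (adjusted p = 1.36e-10), again higher at 26 of 26 points, and the sign was the same on each scan day (8 of 8 and 9 of 9).

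The rise of VTCN1 built up over hours. At 0 h the drug and untreated arrays stood at 10.27 and 10.26 in PC9 and at 9.52 and 9.48 in PC9M2, and at 24 h they stood at 12.97 and 9.06 in PC9 and at 12.05 and 9.55 in PC9M2. In PC9 the window means of the difference were 0.64, 2.59 and 3.41, and in PC9M2 0.67, 2.18 and 2.18. It kept growing in PC9 after the middle window and was level in PC9M2. The late minus early difference was 2.77 ± 0.24 (adjusted p = 4.46e-10) in PC9 against 1.504 ± 0.21 in PC9M2 (1.90e-06). With CD274 and PDCD1LG2, for which it was -1.25 ± 0.27 in PC9 (0.000304), 3 of 8 ligands had such a change in PC9, against 51.7% of all genes. In PC9M2 it was also 3 of 8, against 39.7%, the others being PVR at -0.58 ± 0.23 (0.0458), a call lost under 11 of 15 alternatives, and LGALS9 at 0.88 ± 0.28 (0.0153).

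The rise of VTCN1 was smaller in PC9M2. The gefitinib difference was lower there by 0.56 ± 0.13 (adjusted p = 0.00114) and the late minus early difference by 1.27 ± 0.21 (8.40e-05). Over the first 13 time points the first of these was 0.00 (adjusted p = 0.999) and over the last 13 it was -1.12 (1.41e-06), so the separation between the lines lay in the later hours. It also lost its call with time points 3 h apart (adjusted p = 0.139), without pairing (0.160) and with the variance inflated for correlation (0.168), and the late minus early difference with time points 3 h apart (0.194). With EGF alone VTCN1 was slightly lower than untreated, by 0.16 ± 0.05 in PC9 (0.0202) and by 0.19 ± 0.06 in PC9M2 (0.0389). The PC9M2 call was lost under 8 of 19 alternatives, among them the omission of 15 h (0.0618), and the PC9 call under 4.

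CD276, the B7 family member known as B7-H3, had 2 probes and moved little. By its higher-variance probe it ran in PC9 from 5.66 through 6.35 to 7.37 untreated and from 5.63 through 6.21 to 7.45 with gefitinib, a difference of -0.11 ± 0.12 (adjusted p = 0.420, 95% interval -0.35 to 0.13). In PC9M2 it ran from 5.44 through 6.395 to 7.91 and from 5.04 through 6.16 to 7.35, a difference of -0.35 ± 0.13 (adjusted p = 0.0168). The courses overlapped almost wholly. The second probe gave -0.10 ± 0.08 (adjusted p = 0.271 over 19801 probes) in PC9 and -0.23 ± 0.06 (0.00213) in PC9M2. The PC9M2 call was lost under 5 of the alternatives, with -0.21 (adjusted p = 0.175) when arrays were scaled by their 75th percentile and 0.114 when scan day was a random block.

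**Figure D3:**
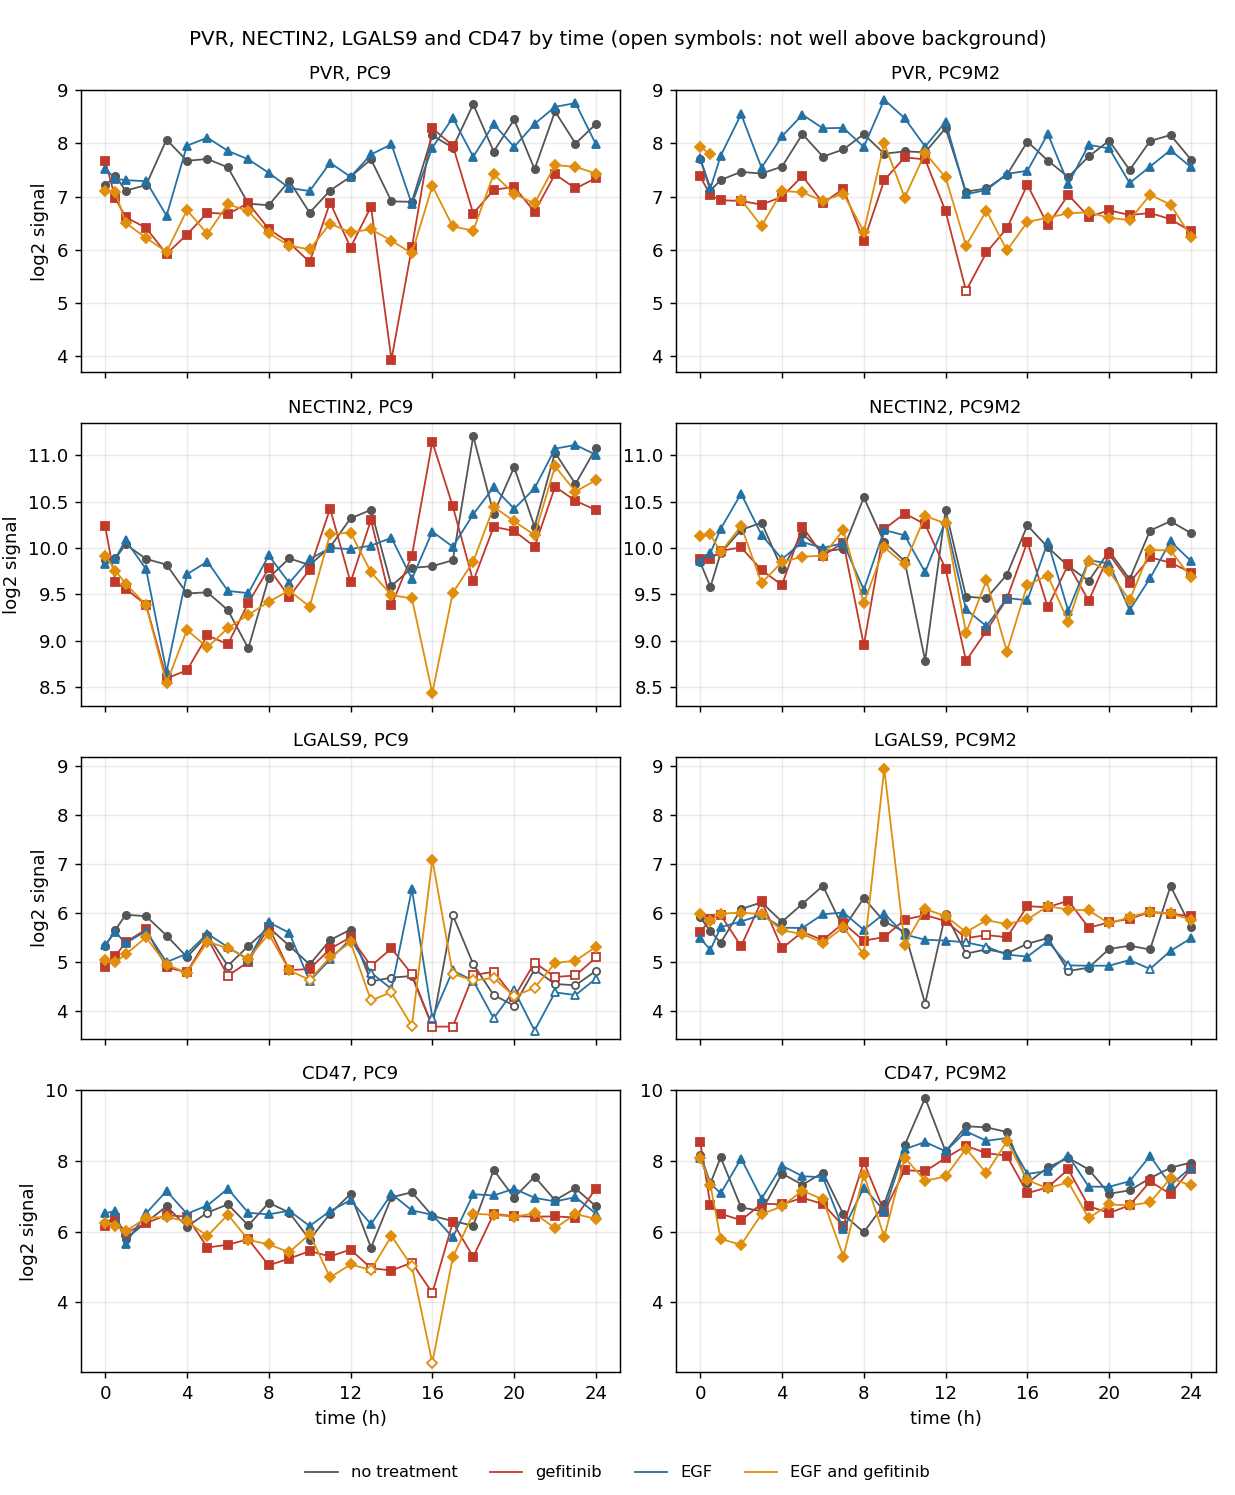
Log2 signal of PVR, NECTIN2, LGALS9 and CD47 (higher-variance probe where a gene has 2) at 26 time points from 0 to 24 h in PC9 and PC9M2, 1 array per point, by treatment, with open symbols for arrays not well above background. The gefitinib courses of PVR run below those without the drug at most points, single arrays stand apart (LGALS9 at 8.95 at 9 h in PC9M2 and CD47 at 2.28 at 16 h in PC9, both with both agents), and the CD47 courses lie higher in PC9M2.

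PVR, the ligand shared by TIGIT, CD96 and CD226, fell with gefitinib by the same amount in both lines. In PC9 it ran from 6.70 through 7.53 to 8.74 untreated and from 3.93 through 6.71 to 8.28 with gefitinib. In PC9M2 it ran from 7.09 through 7.73 to 8.29 and from 5.23 through 6.86 to 7.74. The drug course was lower at 22 of 26 points in PC9 and at 26 of 26 in PC9M2, and the lowest value, 3.93 at 14 h in PC9, stood apart from its neighbours. The differences were -0.89 ± 0.14 (adjusted p = 2.07e-06) and -0.89 ± 0.10 (1.29e-08), 1.86-fold in each, and the difference between them was 0.00 ± 0.16 (95% interval -0.34 to 0.33). The second probe, which read a higher signal, gave -0.66 ± 0.10 (1.36e-06) and -0.87 ± 0.08 (2.16e-10). Both probes thus fell in both lines.

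NECTIN2, the partner of PVR in binding CD226 and TIGIT, changed less. By its higher-variance probe the medians were 9.88 untreated and 9.77 with gefitinib in PC9, and 9.97 and 9.86 in PC9M2, and neither difference passed the test, at -0.23 ± 0.11 (adjusted p = 0.0702) and -0.16 ± 0.10 (0.171). The second probe, with medians of 14.09 and 13.68 in PC9 and of 14.12 and 13.99 in PC9M2, gave -0.31 ± 0.07 (0.000163) and -0.19 ± 0.05 (0.00373), both called. The 2 probes had the same sign, and which of them was taken decided the call. A further probe that a later design file of the array assigns to PVR was not used.

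LGALS9, whose product galectin-9 binds TIM-3 on T cells, was near the limit of detection in PC9. It ran there from 3.70 through 5.03 to 5.97 untreated, with 12 of 26 arrays well above background, and from 3.68 through 4.90 to 5.72 with gefitinib, with 14 of 26. In PC9M2 it ran from 4.15 through 5.63 to 6.56 with 21 of 26, and from 5.28 through 5.82 to 6.25 with 24 of 26. The gefitinib differences of -0.17 ± 0.10 (adjusted p = 0.144) and 0.17 ± 0.13 (0.249) did not pass the test, with 95% intervals of -0.38 to 0.04 and -0.10 to 0.44. The gene has near-identical copies in the genome, of which LGALS9C was also on the array, so its probe may read a copy as well.

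CD47, the signal to phagocytes, fell with gefitinib by both of its probes in both lines. By the higher-variance probe it ran in PC9 from 5.55 through 6.54 to 7.74 untreated and from 4.26 through 5.87 to 7.22 with the drug, a difference of -0.77 ± 0.14 (adjusted p = 2.45e-05) that was lower at 23 of 26 points. In PC9M2 it ran from 5.98 through 7.71 to 9.78 and from 6.16 through 7.07 to 8.54, a difference of -0.45 ± 0.13 (0.00363), also lower at 23 of 26 points. The courses with and without the drug overlapped in both lines. The second probe, with medians of 13.93 and 13.46 in PC9 and of 13.80 and 13.64 in PC9M2, gave -0.46 ± 0.09 (3.12e-05) and -0.18 ± 0.05 (0.00489). By the first probe the PC9M2 call was lost with time points 3 h apart (0.108), over the first 13 time points (0.184) and without pairing (0.0652).

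EGF alone called 3 of the 8 ligands in each line, CD274 and PDCD1LG2 higher and VTCN1 lower, against 25.6% of all genes in PC9 and 9.07% in PC9M2. For the other 5 members the differences lay between -0.16 and 0.16, and none passed the test. This comparison and that of gefitinib share the untreated arrays, so their values are set side by side and not correlated. The EGF difference did not differ between the lines for any of the 8 ligands by limma at an adjusted p of 0.05, with 0 also at an unadjusted p of 0.05 and 0 by the t-test of the methods, against 1.34% of all genes. For CD274 the difference between the lines was -0.24 (95% interval -0.60 to 0.11), and without 0.5 h -0.09.

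**Figure D4:**
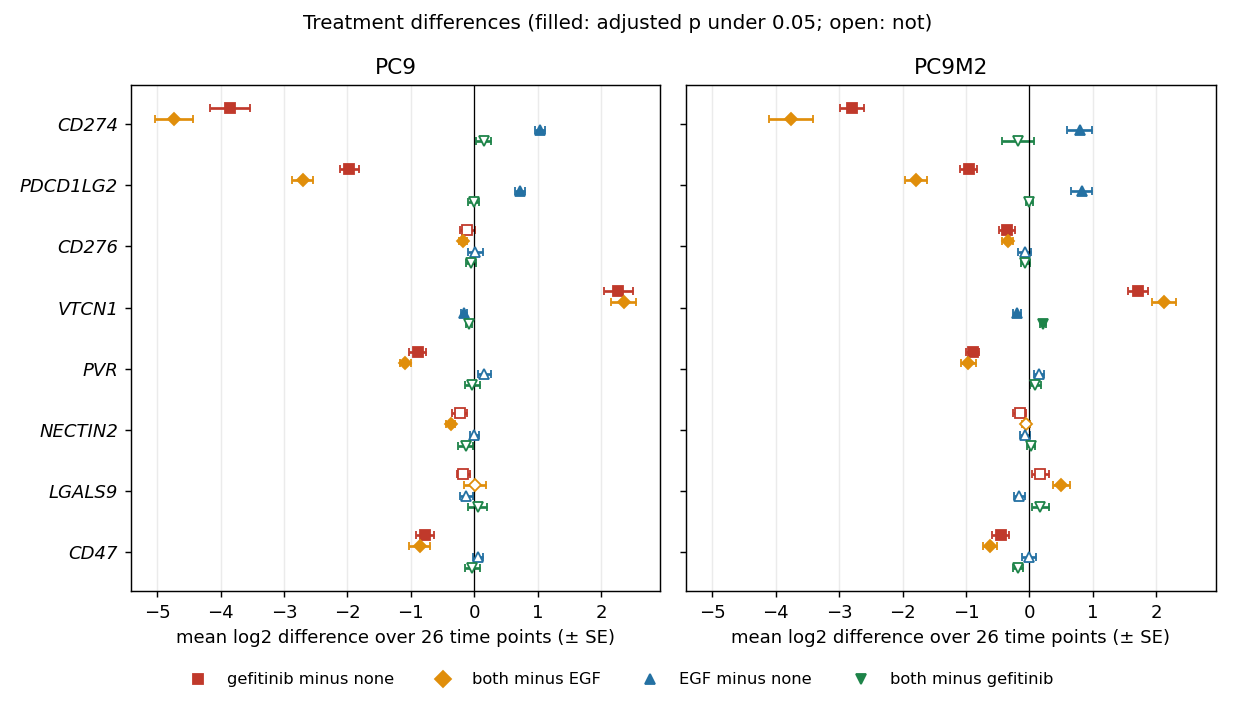
Mean log2 difference over 26 time points (± SE) for each ligand and 4 treatment comparisons in PC9 (left) and PC9M2 (right), with filled symbols at an adjusted p under 0.05. CD274, PDCD1LG2, PVR and CD47 lie left of 0 and VTCN1 right of 0 wherever gefitinib is set against no gefitinib, and the EGF differences of CD274 and PDCD1LG2 are above 0 without gefitinib and near 0 with it.

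When gefitinib was present, no rise of CD274 with EGF was detected, at signals of which many were not well above background. For PDCD1LG2 the differences were -0.011 in PC9 and -0.0035 in PC9M2 (adjusted p = 0.963 and 0.980). It was well above background on 3 of 26 arrays with gefitinib and 1 of 26 with both agents in PC9. In PC9M2 it was so on 0 of 26 in each, so its values cannot show whether EGF raised it. CD274 with both agents ran from 1.87 through 3.77 to 4.91 in PC9, with 10 of 26 arrays well above background, and from 1.79 through 3.62 to 7.43 in PC9M2, with 6 of 26. Against gefitinib alone the differences of CD274 were 0.15 (95% interval -0.11 to 0.40, adjusted p = 0.606) and -0.18 (-0.71 to 0.35, 0.737). Without 0.5 h the PC9M2 value was -0.34, also not called. Of the 8 ligands, 0 were called in PC9 by limma (0 at an unadjusted p of 0.05 and 0 by the t-test of the methods), where 0.0452% of all genes were. In PC9M2 1 was, where 3.11% were, VTCN1 at 0.21 ± 0.05 (adjusted p = 0.0242), a call lost with time points 3 h apart (0.329), over the first 13 points (0.997), without pairing and with the variance inflated for correlation (0.388).

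The difference between the EGF responses with and without gefitinib was tested too. It was -0.89 ± 0.15 for CD274 (adjusted p = 0.000220) and -0.73 ± 0.11 for PDCD1LG2 (4.31e-05) in PC9, 2 of 8 ligands against 13.2% of all genes. In PC9M2 2 of 8 were called against 10.1% of all genes, PDCD1LG2 at -0.83 ± 0.19 (0.00415) and VTCN1 at 0.40 ± 0.08 (0.00149). CD274 in PC9M2 stood at -0.97 ± 0.38 and did not pass (0.107), and without 0.5 h it was -1.30 (0.000364). Most of the CD274 and PDCD1LG2 signals with gefitinib that enter these values were not well above background, and the part of this was not tested. The called values for CD274 and PDCD1LG2 in PC9 were lost with time points 3 h apart (0.256 and 0.265) and without pairing (0.767 and 0.206), the latter being -0.09 with the normexp correction, and that of CD274 also over the last 13 points (0.111). Those of PDCD1LG2 and VTCN1 in PC9M2 were lost with time points 3 h apart (0.390 and 0.132), over the first 13 points (0.551 and 0.379), without pairing (0.198 and 1) and with the variance inflated for correlation (0.0576 and 0.109), and that of PDCD1LG2 also with the normexp correction (-0.05, 0.0697).

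Set against EGF alone, both agents together lowered CD274, PDCD1LG2, PVR and CD47 and raised VTCN1 in both lines. In PC9 6 ligands were lower and 1 higher, where 78.9% of all genes were called, and in PC9M2 5 were lower and 2 higher, where 74.4% were. CD274 was lower by 4.74 ± 0.30 in PC9 (adjusted p = 7.88e-14), where 10 of 26 arrays with both agents were well above background, and by 3.77 ± 0.35 in PC9M2 (1.93e-10), where 6 of 26 were. Without 0.5 h the PC9M2 value was -4.07, and without 15 h, when the library with both agents read 7.43 between 4.07 at 14 h and 4.05 at 16 h, it was -3.87. DUSP6 in that 15 h library was 11.34, like its neighbours at 11.24 and 11.18, so DUSP6 did not stand apart there. With the normexp correction the differences of CD274 were -1.55 and -0.92.

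The other members followed. PDCD1LG2 was lower by 2.70 ± 0.16 in PC9 and by 1.79 ± 0.17 in PC9M2. In PC9M2 0 of 26 arrays with both agents and 8 of 26 with EGF were well above background, so no bound on the fold is given. With the normexp correction these differences were -0.23 and -0.12. VTCN1 was higher by 2.35 ± 0.20 and 2.12 ± 0.19, and in PC9M2 it was 2.20 without 0.5 h. PVR was lower by 1.08 ± 0.08 and 0.96 ± 0.11 (the latter over 25 points, 1 spot being an outlier), and CD47 by 0.86 ± 0.16 and 0.62 ± 0.11. CD276 was lower by 0.17 ± 0.06 in PC9 (adjusted p = 0.0159), a value of 0.00 under scaling by the 75th percentile (0.993), and by 0.34 ± 0.09 in PC9M2 (0.00111), which was 0.17 lower under that scaling (0.107). NECTIN2 was lower by 0.37 ± 0.07 in PC9 (5.37e-05) and LGALS9 higher by 0.50 ± 0.13 in PC9M2 (0.00124), where the 9 h library with both agents read 8.95. The first was lost with time points 3 h apart (0.0763), and the second there (0.0523) and over the first 13 points (0.351).

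Between the lines, 4 of the 8 ligands were called under each treatment, 2 higher and 2 lower in PC9M2. Over all genes 68.1% were called without treatment, 64.7% with gefitinib, 69.8% with EGF and 67.7% with both agents. CD274 was lower in PC9M2 without treatment, by 0.69 ± 0.11 (adjusted p = 1.54e-06), and with EGF, by 0.93 ± 0.17 (1.59e-05), or by 0.82 without 0.5 h. With gefitinib it was 0.37 ± 0.23 higher (0.166, 95% interval -0.11 to 0.85) and with both agents 0.04 ± 0.23 (0.880). The untreated gap opened with time, from a window mean of -0.20 early to -1.12 late, and the EGF value lost its call over the first 13 points (-0.50, adjusted p = 0.0924).

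PDCD1LG2 was lower in PC9M2 in all 4 comparisons, by 1.24 ± 0.15 untreated (adjusted p = 2.40e-08), 1.13 ± 0.16 with EGF (3.06e-07), 0.23 ± 0.08 with gefitinib (0.0193) and 0.22 ± 0.08 with both agents (0.0121). In the last 2 of these, 0 of 26 PC9M2 arrays and at most 3 of 26 PC9 arrays were well above background, and both values were 0.00 with the normexp correction (0.931 with gefitinib and 0.936 with both agents). With that correction the untreated and EGF values were -0.08 and -0.11, still called. VTCN1 was lower in PC9M2 with gefitinib, by 0.58 ± 0.07 at 26 of 26 points (8.87e-09), and with both agents, by 0.29 ± 0.09 (0.00720), a call lost over the last 13 points (-0.10, 0.406). Without treatment its courses crossed, with PC9M2 lower by 0.54 over the first 13 points (0.000374) and higher by 0.50 over the last 13 (0.000249).

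LGALS9 was higher in PC9M2 under each treatment, by 0.52 ± 0.13 untreated (adjusted p = 0.00104), 0.86 ± 0.13 with gefitinib (8.84e-07), 0.48 ± 0.11 with EGF (0.000292) and 0.97 ± 0.17 with both agents (1.44e-05). It was well above background on 21 to 26 of 26 arrays per course in PC9M2 and on 12 to 17 in PC9. The untreated call was lost with scan day as a random block (0.0520). CD47 was also called higher in PC9M2 by its higher-variance probe, by 1.06 to 1.44 in the 4 comparisons, but the second probe, which read the higher signal, gave -0.12 ± 0.09 untreated (0.262), 0.17 ± 0.11 with gefitinib (0.163), -0.17 ± 0.08 with EGF (0.04995, just under the threshold) and 0.22 ± 0.11 with both agents (0.0863). The 2 probes of CD47 thus disagreed on the line difference while both fell with gefitinib.

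**Figure D5:**
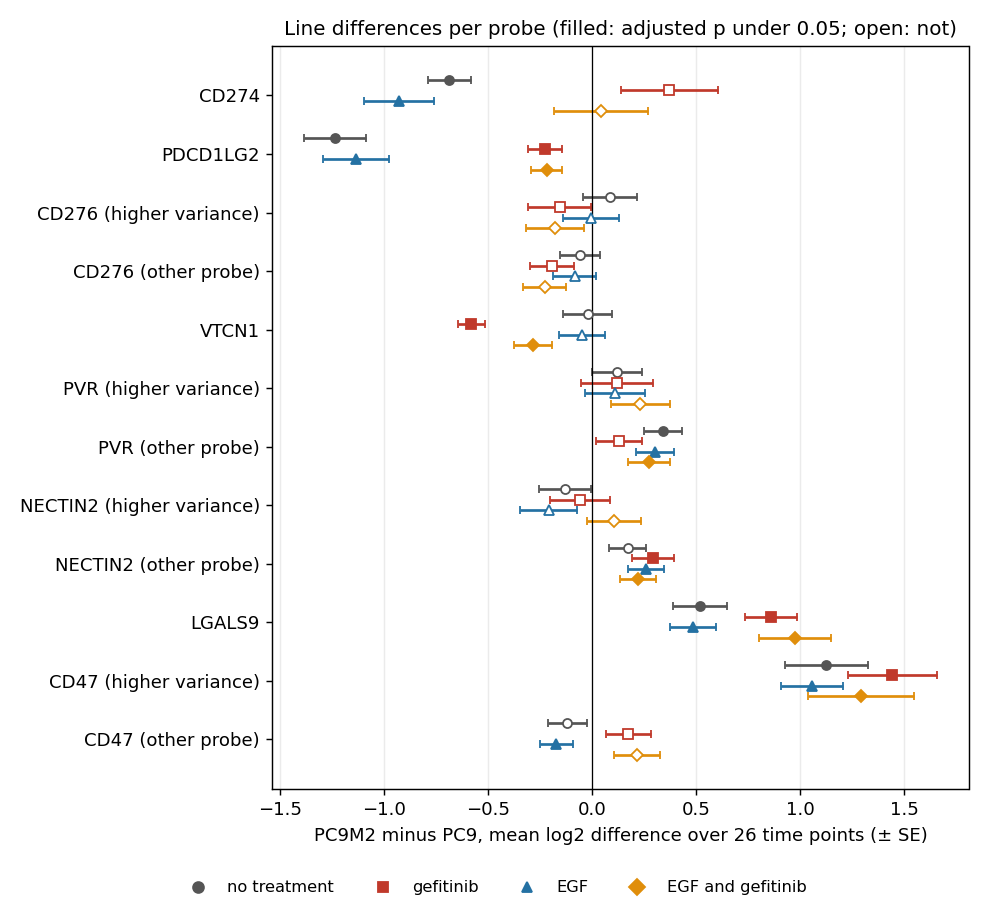
Mean log2 difference between PC9M2 and PC9 over 26 time points (± SE) for each of the 12 probes under the 4 treatments, with filled symbols at an adjusted p under 0.05. The higher-variance CD47 probe lies between 1.06 and 1.44 and its other probe between -0.17 and 0.22, LGALS9 lies above 0 and PDCD1LG2 below 0 under each treatment, and CD274 lies below 0 only in the courses without gefitinib.

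For PVR the higher-variance probe gave 0.12 ± 0.12 untreated (adjusted p = 0.399), and the second probe gave 0.34 ± 0.09 (0.00171), 0.30 ± 0.09 with EGF (0.00533) and 0.27 ± 0.10 with both agents (0.0192). NECTIN2 was -0.13 ± 0.13 untreated by its first probe (0.360) and 0.17 ± 0.09 by its second (0.0991), which was called with gefitinib at 0.29 ± 0.10 (0.0122). When the second probe stood for the gene, NECTIN2 was also called higher in PC9M2 with EGF. CD276 was not called by either probe under the 4 treatments, with values from -0.23 to 0.09. For these genes the sign or the call turned on the probe or on the part of the course taken, as given in the closing section.

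In untreated, starved cells the ligands also changed over the 24 h. A smooth curve over time fitted better than a flat line for 6 of the 8 ligands in PC9 and 5 of 8 in PC9M2 (limma F-test), where 66.5% and 67.5% of all genes did. The fitted curve of CD274 spanned 2.82 in PC9 (adjusted p = 7.73e-14) and 2.04 in PC9M2 (6.50e-08), against a median span of 0.99 and 0.97 over all genes. It rose in both lines, from a window mean of 6.21 to 8.54 in PC9 and from 6.01 to 7.42 in PC9M2. VTCN1 spanned 1.26 (3.07e-06) and 0.95 (1.05e-05), and ran from 10.17 down to 9.41 between the windows in PC9 but from 9.44 up to 10.01 in PC9M2. The other calls were PDCD1LG2, PVR, NECTIN2 and LGALS9 in PC9, spanning 1.68, 1.28, 1.62 and 1.13, and CD276, LGALS9 and CD47 in PC9M2, spanning 1.09, 1.096 and 2.05. The call of LGALS9 was lost in both lines, and that of CD276 in PC9M2, with scan day as a random block.

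Among all 13260 other tested genes, those whose signal followed CD274 most closely over all arrays of the 8 courses were YRDC (Pearson r = 0.926), PNP (0.916), STYK1 (0.915), EIF5A2 (0.912) and ZNF143 (0.905). The most opposed were RGCC (-0.926), CALHM2 (-0.920) and RANBP10 (-0.903). PDCD1LG2 ranked 32 at 0.860, PVR stood at 0.616, CD47 at 0.365 and VTCN1 at -0.774. These are descriptions over arrays that share lines, treatments and slides, and with the mean of each course taken out they fell, to 0.495 for PDCD1LG2 and 0.686 for STYK1.

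Other genes of the same families moved in both directions with gefitinib, which called 72.2% of all genes in PC9 and 66.5% in PC9M2. Of the 7 tested of 14 other B7 and butyrophilin genes, 4 rose and 1 fell in PC9 and 3 rose and 1 fell in PC9M2, with medians of 0.27 and 0.30. VSIR, which encodes the checkpoint protein VISTA, rose by 1.19 ± 0.22 (adjusted p = 2.46e-05) in PC9 and by 0.86 ± 0.14 (3.27e-06) in PC9M2, and the butyrophilin genes BTN3A1 (0.59 and 0.76) and BTN3A3 (0.53 and 0.66) rose while BTN2A2 fell (-0.54 and -0.40). In PC9M2 BTN3A1 was well above background on 4 of 26 arrays untreated and on 16 of 26 with gefitinib, so its value there is limited by dim signal. Of 5 other nectin and nectin-like genes tested, 2 rose and 1 fell in PC9 and 3 rose and 1 fell in PC9M2. NECTIN1 rose by 1.90 ± 0.30 (2.17e-06) and 0.97 ± 0.15 (1.19e-06), NECTIN4 by 1.76 ± 0.16 (2.61e-10) and 1.39 ± 0.12 (8.98e-11) at 26 of 26 points in each line, and NECTIN3 fell by 0.37 and 0.36. CRTAM rose by 0.79 in PC9M2 and stood at -0.07 in PC9.

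A further list held other surface or secreted proteins that act on lymphocytes or phagocytes, both inhibitors and T cell costimulators. Of its 10 genes tested, 3 rose and 5 fell in PC9 and 3 rose and 4 fell in PC9M2, with 72.2% and 66.5% of all genes called. THBS1, whose product thrombospondin-1 is another partner of CD47, fell by 1.56 ± 0.08 (adjusted p = 4.60e-15) and 1.24 ± 0.08 (1.68e-13) at 26 of 26 points in each line, and LGALS3 (galectin-3) rose by 1.09 and 0.98. Of the T cell costimulators, TNFSF4 fell by 0.66 and 0.89, and TNFSF9 fell by 0.94 in PC9M2 and stood at -0.14 in PC9 (0.215). Of the receptors, which belong to immune cells, 6 of 13 were bright enough to test. SIRPA, the receptor of CD47, fell by 1.099 in PC9 and stood at -0.13 in PC9M2, SIRPG fell by 1.497 and 0.54, and CD96 (1.08 and 0.80) and PVRIG (0.74 and 0.33) rose. In PC9 CD96 was well above background on 6 of 26 arrays untreated and on 10 of 26 with gefitinib. Its PC9 value is thus a difference between signals mostly not well above background. SIRPA in PC9 was well above background on 16 of 26 arrays untreated and on 8 of 26 with gefitinib.

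Genes that are known to act on CD274 moved both ways. All 12 genes of the interferon-γ route were tested, of which 4 rose and 3 fell in PC9 and 7 rose and 2 fell in PC9M2, with medians of 0.14 and 0.38, where 72.2% and 66.5% of all genes were called. SOCS1, which restrains the JAK kinases, fell by 1.52 ± 0.09 and 1.74 ± 0.11, while STAT2 (0.72 and 0.80) and IRF9 (0.86 and 0.57) rose, IRF1 rose by 0.68 in PC9M2 and stood at 0.12 in PC9 (adjusted p = 0.343), and JAK2, which neighbours CD274, stood at 0.16 in PC9 (0.0722) and rose by 0.33 in PC9M2. Of 8 other transcription factors linked to CD274, 7 fell and 0 rose in PC9 and 5 fell and 0 rose in PC9M2, with medians of -1.11 and -0.37 against -0.03 and -0.01 over all genes. The AP-1 subunit gene FOSL1 fell by 4.36 ± 0.23 and 2.77 ± 0.13, JUN by 1.62 and 1.64 and MYC by 1.74 and 1.19, and FOS fell by 2.82 in PC9 and stood at -0.27 in PC9M2 (0.337). Whether these genes had a part in the change of CD274 was not tested. In PC9 FOSL1 was well above background on 26 arrays untreated and on 10 with gefitinib. MYC was so on 15 arrays untreated and on 8 with gefitinib in PC9, and on 23 and 12 in PC9M2. The PC9 value of FOSL1 and the MYC values in each line are thus limited by dim signal.

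Of 11 genes that act on the PD-L1 or CD47 protein, 1 rose and 3 fell in PC9 and 1 rose and 5 fell in PC9M2, against 72.2% and 66.5% of all genes called in either direction. GSK3B, whose kinase marks PD-L1 for breakdown, fell by 1.01 ± 0.10 (adjusted p = 1.79e-09) and 0.50 ± 0.09 (8.27e-06). CUL3 fell by 0.68 and 0.51 and QPCTL, which modifies CD47 so that SIRPα binds it, by 0.80 and 0.88, while CDK5 rose by 0.84 and 0.52. Protein was not measured.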

How the data were processed

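RNA of 8 time courses (2 lines by 4 treatments, 26 arrays each) was hybridized to one-colour Agilent 44K arrays. The authors deposited, per array, intensity values of Feature Extraction (background-subtracted scanner units), flags of the scanner software (outlier, saturated, well above background; another kind of value, not a score) and a table of quantile-normalized intensities. The coordinates in the array files were not used. Here the intensities were quantile normalized over all arrays and 45015 features, which gave 100% of the deposited normalized intensities within 1%, given a floor of 1 and put on a log2 scale. Outlier spots were dropped (0.0793% of tested values) and spots of a probe averaged. The probe with the largest variance stood for a gene, as in the methods. A gene was tested when well above background on at least 13 of 26 arrays of a course (13261 genes, with 3700 left out). Of 41000 probes, 24794 were named through their RefSeq accession, taken from the design used for all but 4 arrays.

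Paired differences over matched time points were tested with limma 3.58.1 (R 4.3.3, statmod 1.5.0), two-sided, with Benjamini-Hochberg adjustment at 0.05. Change over time used an F-test of a natural spline with 4 degrees of freedom. The early, middle and late windows held 8, 9 and 9 time points. The number of arrays limits the precision, and independent cultures were not analysed here. Scripts were tested on simulated data. Named were all 8 ligands with every probe, the 5 genes most and 3 least correlated with CD274, and of each list of other genes up to 4 called with the largest gefitinib difference, and JAK2. The members and lists were chosen with earlier results of these data known. Alternatives covered scaling, background correction, floor, filter, choice of probe, subsets of time points, pairing, correlation between neighbouring points and scan day. The omission of 0.5 h or 15 h, fits of each probe and 3 added comparisons were chosen after seeing the data.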

Additional observations from a re-analysis of the deposited data

Results flagged for a closer look

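The difference with gefitinib was not the same in the lines for 3 ligands. As the value in PC9M2 minus that in PC9 it was 1.06 for CD274, 1.01 for PDCD1LG2 and -0.56 for VTCN1, and each passed limma's test of the difference, against 34.1% of all genes. All 3 calls were lost with time points 3 h apart (adjusted p of 0.0555, 0.0756 and 0.139) and over the first 13 time points (0.933, 0.0597 and 0.999). The change of the gefitinib difference from the early to the late window also differed between the lines, by 2.43 for CD274 and -1.27 for VTCN1. The response to EGF differed with and without gefitinib, by -0.887 for CD274 and -0.733 for PDCD1LG2 in PC9, and by -0.827 for PDCD1LG2 and 0.405 for VTCN1 in PC9M2. Line and scan period cannot be told apart. The signal with gefitinib was near background for CD274 and PDCD1LG2, and the part of this in their values was not tested.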

How the results depend on the processing

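The values of the 8 ligands in 21 comparisons were recomputed under up to 20 alternatives each. Of 3011 recomputed values 2818 kept their side of the threshold, 121 lost and 57 gained a call, and 15 turned. A value turned when its sign changed and it was called in the main or the alternative run. Sign changes between values that were both not called are counted among the 2818. The gefitinib differences of CD274, VTCN1 and PVR kept sign and call under all 19 alternatives in both lines, from -5.30 to -0.96 and from -3.25 to -0.55 for CD274, from 1.26 to 3.29 and from 1.26 to 2.17 for VTCN1, and from -1.09 to -0.57 and from -1.20 to -0.59 for PVR.

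Of 379 recomputed counts of ligands called, 347 stayed within 1.5 times and 32 moved. With time points 3 h apart the count fell from 3 to 0 for EGF in PC9M2, from 1 to 0 for both agents against gefitinib in PC9M2, from 4 to 2 between the lines with both agents, from 3 to 0 for the line difference of the gefitinib effect, from 2 to 0 for the EGF effect with and without gefitinib in each line, and from 2 to 0 for the line difference of the late minus early effect. Over the first 13 points it was 0 for EGF in PC9M2, 0 for both agents against gefitinib in PC9M2, 7 between the lines with EGF (4 over all points), 0 for the line difference of the gefitinib effect and 0 for the EGF effect with and without gefitinib in PC9M2. Over the last 13 it was 8 between the lines with EGF and 1 for the EGF effect with and without gefitinib in PC9. Without pairing it was 1 for EGF in PC9M2, and 0 for both agents against gefitinib in PC9M2 and for the EGF effect with and without gefitinib in each line. With the variance inflated for correlation it was 1 for EGF in PC9M2, 0 for both agents against gefitinib in PC9M2, 2 between the lines with both agents, 1 for the line difference of the gefitinib effect and 0 for the EGF effect with and without gefitinib in PC9M2. A one-sided test for higher in PC9M2, which by construction calls no lower gene, gave 2 in each of the 4 line comparisons, and normexp gave 2 with gefitinib. Scan day as a random block gave 1 in place of 3 for the late minus early effect and 3 in place of 5 for change over time, both in PC9M2. A filter for all 26 arrays of a course, which PDCD1LG2 did not pass, gave 1 in place of 2 for the EGF effect with and without gefitinib in each line. Except where the construction shows it, the cause was not tested.

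The values that turned were mostly between the lines. For CD47 normexp gave -0.053 untreated and -0.13 with EGF, and the probe with the highest mean -0.12 and -0.17. That probe choice gave 0.29 with gefitinib and 0.26 with EGF for NECTIN2, which over the first 13 points stood at 0.47 and 0.31. Over the first 13 points CD276 stood at 0.46 with EGF, and over the last 13 VTCN1 at 0.50 untreated and 0.43 with EGF and PVR at -0.40 with EGF. PDCD1LG2 with both agents was 0.00156 with normexp. The line difference of the gefitinib effect of VTCN1 was 0.000531 and the LGALS9 difference between both agents and EGF in PC9 was -0.22 over the first 13 points.

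Over all genes, the number called with EGF was 3398 in PC9 and between 401 and 2009 over the alternatives that moved it by over 1.5 times, and 1203 in PC9M2 (14 to 522). For both agents against gefitinib it was 6 in PC9 (0 to 2) and 412 in PC9M2 (0 to 945, the latter without 0.5 h). With gefitinib in PC9M2 it was 8825, and 5395 over the first 13 points. Between the lines it was 9036, 8585, 9260 and 8981 in the order given above (5877 untreated, 5752 with EGF and 5706 with both agents for points 3 h apart, 5866 with both agents for inflated variance, and 3978, 3935, 4220 and 4021 one-sided). For the line difference of the gefitinib effect it was 4523 (1043 to 2870), of the EGF effect 178 (0 to 334) and of the late minus early effect 2450 (59 to 1292). For the late minus early effect it was 6856 in PC9 and 5261 in PC9M2 (2493 and 2313 for points 3 h apart), for change over time in PC9M2 8946 (5167 with scan day as a block), and for the EGF effect with and without gefitinib 1745 in PC9 (0 to 1034) and 1341 in PC9M2 (1 to 2172).

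Besides the values given in the report, normexp gave 0.59 and 0.38 for CD274 with EGF, -1.22 for its late minus early effect in PC9 and 0.80 for the line difference of that effect, and the first 13 points gave -2.40 for CD274 and 1.26 for VTCN1 with gefitinib in PC9. For change over time, the subsets of time points (3 h apart, first or last 13), unpaired courses, the t-test and the inflated variance were not run, and for the late minus early effect the first or last 13 points, the t-test and the inflated variance were not. Dim signal limits CD274 and PDCD1LG2 with gefitinib and LGALS9 in PC9.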
